A study of Mus musculus with 43 samples.

Results

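The enzymes that carry glucose to pyruvate and lactate were followed through 43 libraries of PD798, a cell line derived from a KPCY mouse with a tumor of the pancreas. The 10 genes are Hk2, Gpi1, Pfkl, Aldoa, Tpi1, Gapdh, Pgam1, Eno1, Pkm and Ldha, out of 13845 genes in the table of the processing experiment and 13817 genes in the table of the input series. Pgam1 was selected on its adjusted p in the comparison of the 4 processing conditions in these same libraries, and the other 9 genes were chosen by their place in the pathway. The values of Pgam1 across those conditions are therefore a description with no test, and the other genes are given in the same way there.

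KPCY mice carry Pdx1-cre, 1 floxed p53 allele (L/+) and a yellow fluorescent protein at Rosa (YFP/YFP), so the cre driven by the pancreatic Pdx1 promoter marks the cells that recombined, and all groups share these alleles. PD798 is a single line, so the libraries say nothing of variation between tumors, and whether replicates came from separate cultures was not given in the sources used here. In the processing experiment, bulk RNA was taken from 3 samples each of cells banked before sorting with no treatment (Pre-FACS), cells held in staining buffer on the benchtop for the same time (Mock), cells sorted on a BD Influx without passing the pre-enrichment platform (FACS-only), and cells that passed through that platform before the sorter (Pre-enriched). The study's text describes the incubation with magnetic particles and red cell lysis buffer for the Pre-enriched sample and calls FACS-only the same sample, and the labels do not say whether FACS-only cells were given these agents. In the input series, PD798 cells were spiked into blood of healthy mice, pre-enriched and sorted for YFP as 11 single cells, 12 pools of 10 cells and 6 pools of 100 cells, whose lysates went into SMART-Seq v4 library preparation, and 2 libraries of bulk RNA of the line stand beside them. The labels give the bulk RNA the same flow treatment as the sorted cells, whereas the study's text calls it RNA of the cell line, and which holds was not settled here.

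Glycolysis splits glucose into pyruvate in the cytosol. Hexokinase and phosphofructokinase commit the sugar to the pathway, aldolase and triose phosphate isomerase handle its split products, and the lower enzymes from glyceraldehyde-3-phosphate dehydrogenase to pyruvate kinase recover energy as ATP. Lactate dehydrogenase A then turns pyruvate into lactate, and many tumors are known for high use of this route. Phosphoglycerate mutase 1, the product of Pgam1, moves the phosphate of 3-phosphoglycerate to the next carbon, between phosphoglycerate kinase and enolase.

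Promoter sequence is shown for Pgam1, the gene the list was built around, and for Ldha and Hk2, the other members with the letters of the hypoxia response core, since hypoxia-inducible factor and Myc are known regulators of glycolytic genes and bind ACGTG and CACGTG, respectively. Capitals mark ACGTG on either strand, so that CACGT is the same motif read from the other strand, and CACGTG contains both. The 250 bases before each RefSeq start (GRCm38.p6) were searched for all 10 members, which all matched by symbol. ACGTG was found in 3 of the 10 windows, against 16.6% of 27025 promoters, and CACGTG in 1 of the 10, against 6.04%.
Pgam1 (chr19:41911621-41911870, plus strand): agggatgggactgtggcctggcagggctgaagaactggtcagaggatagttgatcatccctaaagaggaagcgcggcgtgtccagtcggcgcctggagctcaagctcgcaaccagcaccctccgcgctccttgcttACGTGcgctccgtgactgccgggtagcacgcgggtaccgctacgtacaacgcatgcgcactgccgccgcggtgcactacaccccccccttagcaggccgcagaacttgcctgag
Ldha (chr7:46845554-46845803, plus strand): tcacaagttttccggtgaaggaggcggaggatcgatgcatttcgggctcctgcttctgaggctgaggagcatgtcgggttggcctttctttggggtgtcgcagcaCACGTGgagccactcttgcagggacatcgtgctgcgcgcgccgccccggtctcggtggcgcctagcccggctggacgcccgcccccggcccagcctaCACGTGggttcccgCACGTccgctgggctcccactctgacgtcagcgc
Hk2 (chr6:82774455-82774704, minus strand): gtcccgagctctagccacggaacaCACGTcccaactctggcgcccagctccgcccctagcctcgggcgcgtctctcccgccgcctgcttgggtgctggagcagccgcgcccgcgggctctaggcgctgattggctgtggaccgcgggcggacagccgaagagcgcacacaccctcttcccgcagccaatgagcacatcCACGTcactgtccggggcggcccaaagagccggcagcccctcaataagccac
The Pgam1 window held 1 match, the Hk2 window 2 and the Ldha window 5, of which 4 lie in its 2 copies of CACGTG. A match is a run of letters and not a bound site. The Pgam1 gene itself spans chr19:41911923-41918660 on the plus strand, Ldha chr7:46841475-46855627 on the plus strand and Hk2 chr6:82725025-82774454 on the minus strand (mm10, GENCODE spans). The Ldha window lies inside its GENCODE span, which starts further upstream than the RefSeq start. The symbol Aldoa belongs to 2 gene entries of that annotation.

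The tables hold TPM, a transcript's share of each library corrected for its length, so levels can be set beside each other between genes. TPM keeps no record of read number. The study's text gives a range of mean depths for the input series and a minimum per sample. The depth of each library is not known from the values used here, and counting errors are not given. The labelled cell type was checked first. All 8 epithelial markers were present at 1 TPM or more in each processing library, led by Krt18, and they summed to between 24018 and 27494 TPM. Of 10 leukocyte markers the table lists only Ptprc, the gene of CD45, which stayed between 0 and 0.689 TPM, and of 7 erythrocyte markers only Alas2, at 0 to 3.33 TPM. Platelet markers (2 of 3 in the table) summed to at most 4.45 TPM, fibroblast markers (2 of 5) to at most 1.81 TPM and acinar markers (1 of 4, Cela1) to at most 16.1 TPM. These are bulk samples, in which fewer cells of a type and less RNA per cell cannot be told apart.

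In the starting cells, Pkm, Ldha and Gapdh were the most abundant of the 10 transcripts. Pkm (pyruvate kinase) had 4776 ± 191 TPM in Pre-FACS (SD, n = 3), Ldha 4360 ± 128 TPM and Gapdh 3997 ± 174 TPM. The values of Ldha and Gapdh lay on either side of each other's range without overlap, and so did those of Pkm and Ldha. Tpi1 (triose phosphate isomerase) followed with 2537 ± 15.2 TPM and Aldoa (aldolase A) with 2163 ± 4.84 TPM. Gpi1, which makes fructose-6-phosphate, stood at 436 ± 9.19 TPM, Pgam1 at 399 ± 8.86 TPM, the liver-type phosphofructokinase Pfkl at 324 ± 9.56 TPM and hexokinase 2 (Hk2) at 82.3 ± 6.28 TPM. None of these neighbours overlapped in their 3 values either. The sum of the 10 genes was 1.87% to 1.94% of all TPM in the 3 Pre-FACS libraries.

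Eno1 (enolase 1) stood apart from the rest of the pathway at 1.16 ± 0.193 TPM in Pre-FACS, and in all 43 libraries it was listed between 0 and 1.83 TPM. Of the 75-base words in its main transcript, 65.4% also occur in other genes, and 64.2% occur in Eno1b, which was listed at 1.17 TPM in Pre-FACS and at 67.3 and 77.6 TPM in the bulk RNA of the input series. The words of Gapdh were shared to 80.3%, those of Pgam1 to 40.6% (all with the pseudogene Pgam1-ps2), and those of Hk2 and Pfkl to 0%. How the counting treated such reads is not given in the sources used here, so the level of Eno1 is uncertain. The ranks of Gapdh and Pgam1 given above rest on the listed values, and the part of shared sequence in any of these levels was not tested. The members lie on several chromosomes of mm10, with Hk2, Tpi1 and Gapdh on chromosome 6 and Gpi1, Aldoa and Ldha on chromosome 7. Eno3, the muscle-type enolase, was listed at 239 TPM in Pre-FACS.

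Pgam1 was lower after sorting, and lowest after pre-enrichment. The Pre-FACS libraries held 389, 406 and 401 TPM and the Mock libraries 357, 393 and 367 TPM. After sorting alone the 3 values were 324, 323 and 360 TPM, and after pre-enrichment 306, 308 and 309 TPM. The values of neighbours in this order overlapped between Pre-FACS and Mock and between Mock and FACS-only, whereas the 3 Pre-enriched values lay below all 9 others. On the log2(TPM + 1) scale, on which changes of low genes are understated, Pgam1 differed from Pre-FACS by -0.10 (Mock), -0.25 (FACS-only) and -0.37 (Pre-enriched), each with a limma standard error of 0.054. The mean of Pre-enriched was thus 1.30-fold below that of Pre-FACS. These 3 differences share the Pre-FACS samples, and they are the values on which Pgam1 was selected.

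**Figure D1:**
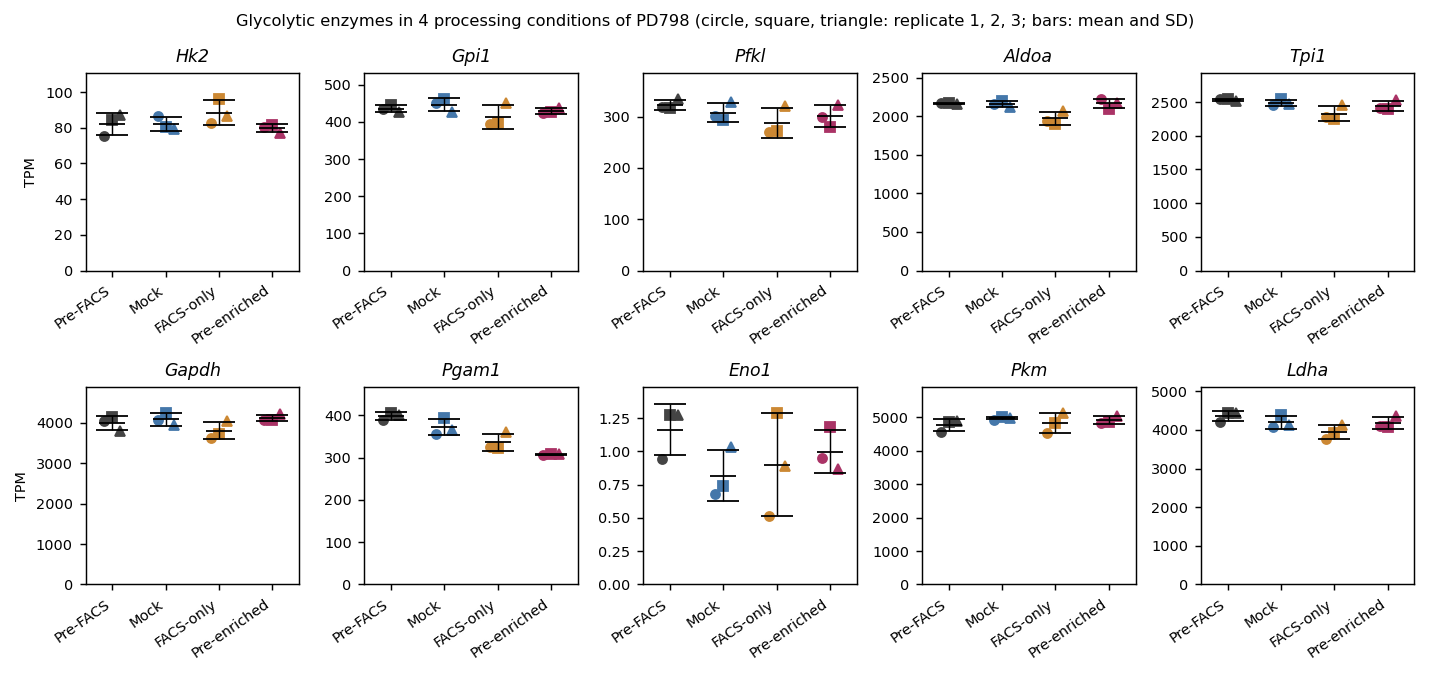
TPM of each of the 10 enzymes (vertical axes from 0, each with its own range) in the 3 libraries of each condition, with the mean and SD as bars. Pgam1 steps down to 306 to 309 TPM in Pre-enriched, while Aldoa, Tpi1 and Ldha are lowest in FACS-only, where replicate 3 lies above the other 2 libraries.

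Counts of calls are given as background. With an adjusted p under 0.05 by limma (Benjamini-Hochberg over 12159 genes), 13 genes (0.107%) passed among the 4 conditions, and Pgam1 was the 1 gene of the 10 among them. Between Pre-enriched and Pre-FACS 6 genes (0.0493%) passed, again with 1 of the 10, and between FACS-only and Pre-FACS 15 (0.123%) passed, with 0 of the 10. Between Mock and Pre-FACS 1 gene (0.00822%) passed, with 0 of the 10. Between Pre-enriched and FACS-only 0 genes (0%) passed by limma, and 821 had an unadjusted p under 0.05. Nothing about the members is read from these counts, since the list was built on this experiment. The call of Pgam1 between Pre-enriched and Pre-FACS was lost without Pre-FACS replicate 2 or 3 or without any of the Pre-enriched replicates, with differences that stayed between -0.39 and -0.36. The call among the 4 conditions was lost on leaving out any single library except Mock replicate 2 and FACS-only replicates 1 and 3.

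The enzymes above Pgam1 in the pathway showed smaller differences in Pre-enriched cells. Hk2, which traps glucose in the cell, had 75.2, 84.5 and 87.1 TPM in Pre-FACS and 80.5, 81.7 and 77.1 TPM in Pre-enriched. Pfkl, which sets the committed step, had 319, 318 and 335 TPM in Pre-FACS and 300, 279 and 323 TPM in Pre-enriched. In both genes the groups overlapped, and the log2 differences were -0.04 with a standard error of 0.075 and -0.11 with a standard error of 0.072.

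Aldoa had 2166, 2165 and 2157 TPM in Pre-FACS and 2224, 2099 and 2175 TPM in Pre-enriched, a log2 difference of 0.0016. Tpi1, with 2546, 2545 and 2519 TPM in Pre-FACS, had 2419, 2393 and 2529 TPM in Pre-enriched. Both overlapped between these conditions. Gpi1 differed by -0.02 on the log2 scale and Gapdh, which makes the first NADH of the pathway, by 0.05.

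Below Pgam1, Pkm had 4555, 4875 and 4897 TPM in Pre-FACS and 4821, 4869 and 5045 TPM in Pre-enriched. Ldha had 4212, 4439 and 4430 TPM in Pre-FACS and 4113, 4067 and 4361 TPM in Pre-enriched. The groups overlapped in both genes, with log2 differences of 0.04 and -0.06, which were -0.12 and -0.15 after quantile normalization. Eno1 differed by -0.11 with a standard error of 0.22, at about 1 TPM.

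As a share of the summed TPM of the 10 genes, Pgam1 took 2.07%, 2.09% and 2.10% in Pre-FACS and 1.63%, 1.65% and 1.59% in Pre-enriched. Mock (1.89% to 2.00%) and FACS-only (1.83% to 1.89%) lay between them and overlapped each other. The sum itself was 1.88%, 1.86% and 1.95% of all TPM in Pre-enriched, inside or near the range of Pre-FACS. The summed level overlapped between these conditions and the share of Pgam1 in it did not, which restates the values on which Pgam1 was selected.

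In FACS-only cells more of the enzymes lay below Pre-FACS. Aldoa was 1942, 1905 and 2065 TPM, Tpi1 2278, 2243 and 2454 TPM, and Ldha 3767, 3914 and 4138 TPM. For these genes all 3 FACS-only libraries lay below all 3 Pre-FACS libraries, as they did for Pgam1, which was selected on these libraries. With Pgam1 included, 4 of the 10 members did so, against 705 of 12159 genes (5.8%), and the count is a description only. In Pre-enriched, 1 of the 10 did so (Pgam1), against 1002 genes (8.24%). Replicate 3 of FACS-only was the highest of the 3 for each of the 9 enzymes other than Eno1 but Hk2, with 82.7, 96.2 and 86.4 TPM. The median difference from Pre-FACS was -0.13 on the log2 scale over the 10 genes and 0.0010 over all genes tested.

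**Figure D2:**
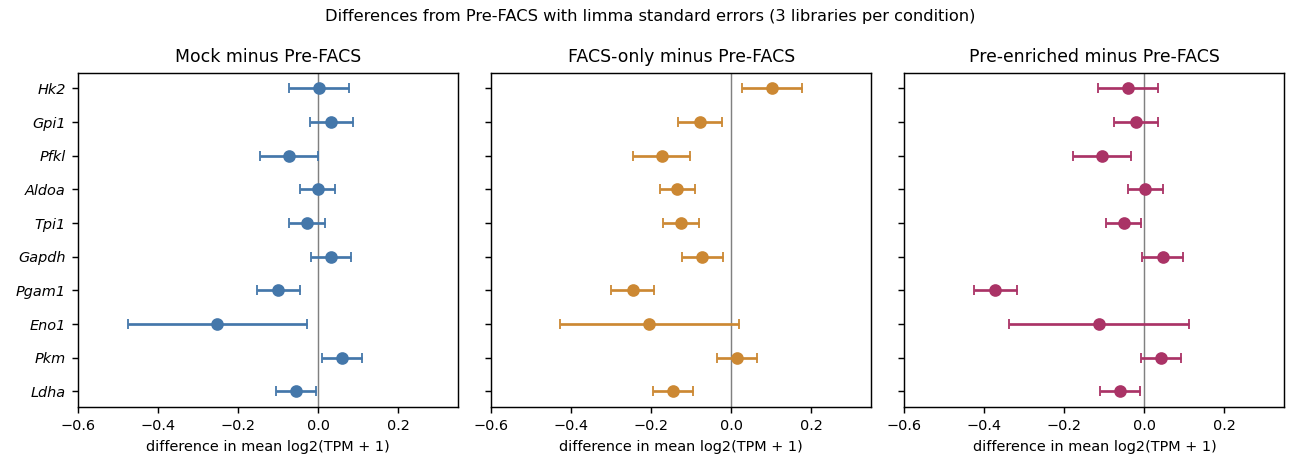
Difference in mean log2(TPM + 1) from Pre-FACS (horizontal axis) for each enzyme in Mock, FACS-only and Pre-enriched, with limma standard errors as bars. Pgam1 lies at -0.37 in Pre-enriched, while Eno1 has the widest bars, with standard errors of 0.22 at about 1 TPM.

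Genes that surround the pathway were tested in the same fit, from lists of isoenzymes, transporters, regulators and neighbouring pathways. No list had a member past the threshold in any of these comparisons by limma. Pgk1, phosphoglycerate kinase, which acts just before Pgam1, had 490 TPM in Pre-FACS and 485 TPM in Pre-enriched, a log2 difference of -0.02 with a standard error of 0.050 (limma adjusted p = 0.961). Phgdh, which draws 3-phosphoglycerate away into serine synthesis, had 914 TPM in Pre-FACS and 949 TPM in Pre-enriched (limma adjusted p = 0.902). Slc2a1, the glucose transporter, differed by -0.01 (limma adjusted p = 0.969), and Bsg, the partner of the lactate transporters, by -0.10 (limma adjusted p = 0.649).

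Of the transcription factors, Myc differed by -0.09 and Hif1a by -0.03 in Pre-enriched against Pre-FACS, with limma adjusted p of 0.728 and 0.913. Among 14 hypoxia-induced genes outside glycolysis, 5 had an unadjusted p under 0.05 over the 4 conditions and 0 passed after adjustment, while 919 of the 12159 genes tested had an unadjusted p under 0.05. Bnip3, a mitochondrial protein, had 249 TPM at its median in Pre-FACS, 220 TPM in FACS-only and 219 TPM in Pre-enriched. Vegfa, an angiogenic growth factor, had medians of 231 TPM in Pre-FACS and 271 TPM in FACS-only. The first lay lower and the second higher in FACS-only, with limma adjusted p of 0.382 and 0.226. Of the 14 genes, 2 had a positive difference from Pre-FACS in FACS-only, as had 6117 of the 12159 genes tested. The median log2 difference was -0.066 over the 14 genes and 0.0010 over all genes.

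Some genes outside the list tracked Pgam1 more closely than the other enzymes did. Over the 12 libraries, among 8948 genes with a mean of at least 10 TPM, the highest Pearson's r with Pgam1 belonged to Kifc1 (r = 0.930), a mitotic kinesin, then Faf2 (0.905), Sgpl1 (0.889), Serpinb9 (0.883) and Efhd2 (0.881). The mean of Kifc1 was 20.8 TPM before sorting, 17.0 TPM in Mock cells, 12.4 TPM after FACS-only and 11.3 TPM after pre-enrichment. Of the enzymes, Tpi1 came nearest with r = 0.617 at rank 400, followed by Ldha (0.586), Pfkl (0.540), Gpi1 (0.502) and Aldoa (0.321). Gapdh (0.131), Pkm (0.077) and Hk2 (-0.009) barely followed Pgam1. These r values describe 12 points that share 4 conditions and 1 line. Pgam1 was selected on these same libraries, and the named genes are the highest of 8948. That they lie above the few enzymes is therefore a description only.

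Of the 9 enzymes other than Eno1, all but Hk2 correlated positively with each other across the 12 libraries. Over the 36 pairs the median r was 0.533, and 29 pairs were positive, compared with a median of 0.013 over pairs of 2065 genes at 100 TPM or more. Tpi1 and Ldha were the closest pair (r = 0.897), and Hk2 and Aldoa the most opposed (r = -0.596). Hk2 was negative with 7 of the other 8, among them Tpi1 (-0.561) and Gapdh (-0.508), and these were all of the negative pairs. The points share library and condition, and the values are a description.

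In the input series some libraries go against their labels or stand apart. Single cells 6 and 9 and 10-cell pools 5 and 12 correlated with each other at r from 0.977 to 0.995 across genes, whereas the other single cells correlated at 0.537 to 0.730 and the other 10-cell pools at 0.865 to 0.949. The same 4 libraries correlated with 100-cell pools 1 to 3 at r from 0.967 to 0.993, so single cells 6 and 9 go against their labels, and their values may not be those of 1 cell. The 10-cell pools 5 and 12 stand apart from the other 10-cell pools in the same way, and their values may not be those of 10 cells. Single cell 6 held 11438 genes at 1 TPM or more and single cell 9 held 11223, compared with a median of 5823 over all single cells. Pools 5 and 12 of 10 cells held 11497 and 11498, compared with a median of 10114 over all 10-cell pools. The 100-cell pools 4 to 6 differed from pools 1 to 3, and single cells 1 to 4 listed the X-linked Pgk1 at 0. The table's genes held 54.2% to 99.99% of the fixed TPM total in single cells. Several of the results that rest on these libraries are given with and without them.

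All 8 epithelial markers were in the input table, with a summed level of 3463 to 30244 TPM in single cells. Of the 10 leukocyte markers 3 were in the table, with a median sum of 6.49 TPM in single cells and 44.7 TPM in 100-cell pools, led by S100a8 in all 6 of those pools. The bulk RNA libraries held 45.8 and 60.9 TPM of these markers, with Cd79a at 0 in both. The erythrocyte marker Alas2 reached 278 TPM in single cell 11 and was 0 in 8 of the 11 single cells. The part of these markers in the values of the enzymes was not tested.

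Pgam1 was detected in every library of the input series. It ranged from 41.8 to 301 TPM with a median of 157 TPM in single cells, from 131 to 238 TPM with a median of 204 TPM in 10-cell pools, and from 82.3 to 232 TPM with a median of 159 TPM in 100-cell pools, and it was 276 and 282 TPM in bulk RNA. All 10-cell and 100-cell pools lay below both bulk libraries, while the range of single cells took in all other inputs. Without single cells 6 and 9 the range over single cells was the same and the median 118 TPM.

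As a share of the 10 genes, Pgam1 took 0.516% in single cell 7 and 0.619% in single cell 8, compared with 1.11% to 2.13% in the other single cells. The share was 1.53% to 2.38% in 10-cell pools, 1.77% to 1.95% in 100-cell pools, and 2.06% and 2.10% in bulk RNA. Single cells 7 and 8 thus lay below all other libraries of the series.

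**Figure D3:**
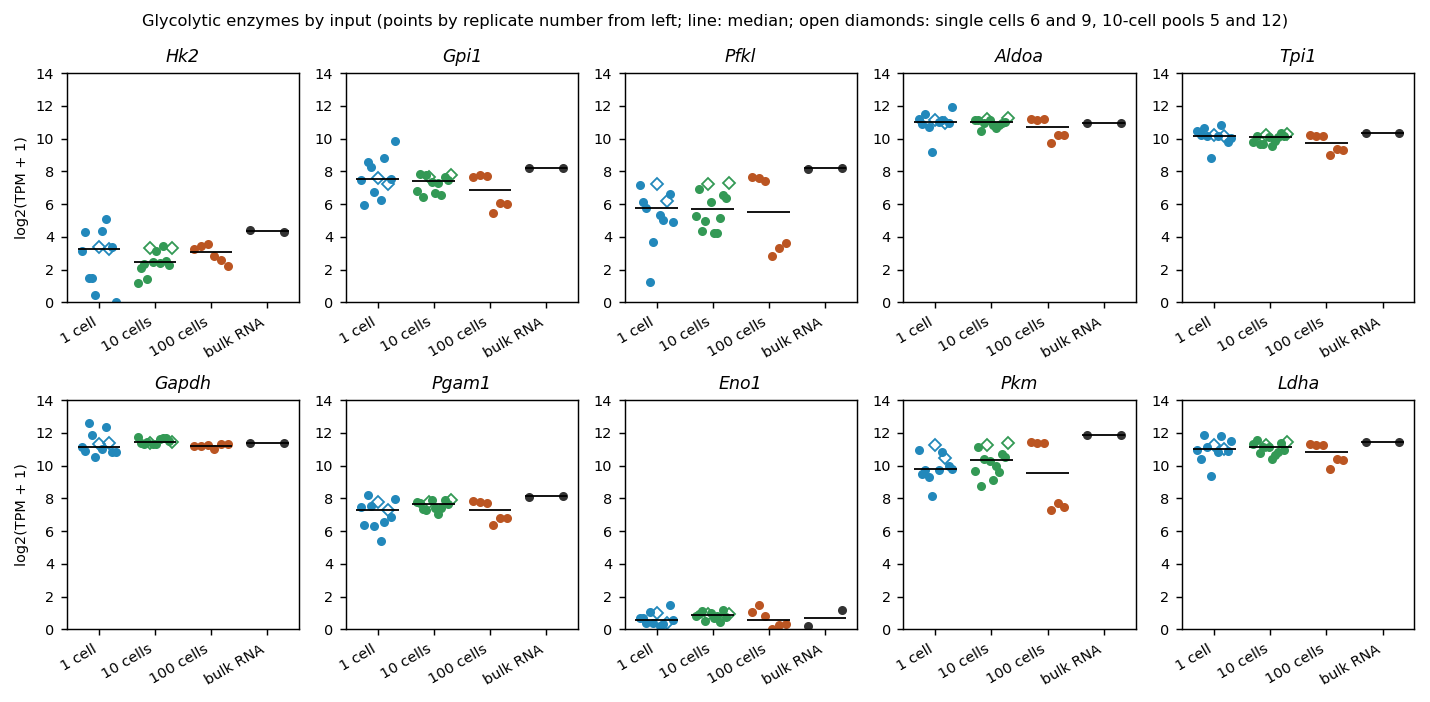
log2(TPM + 1) of each enzyme (vertical axes) in single cells, 10-cell pools, 100-cell pools and bulk RNA, a point per library with the median as a line; open diamonds mark the 4 libraries of nearly the same profile. Pfkl and Pkm fall into 2 separate levels among the 100-cell pools, and Gapdh stays within 2111 to 2527 TPM there.

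The abundant enzymes were found in each cell. Gapdh ran from 1474 to 6184 TPM over single cells with a median of 2235 TPM, Ldha from 652 to 3694 TPM with a median of 2060 TPM, Aldoa from 589 to 3854 TPM with a median of 2058 TPM, and Tpi1 from 450 to 1804 TPM with a median of 1167 TPM. Pkm, the top enzyme of the starting cells, ran from 287 to 2428 TPM with a median of 875 TPM, below both bulk RNA values of 3756 and 3733 TPM in every cell. Pfkl ran from 1.36 to 147 TPM and Hk2 from 0 to 33.3 TPM, and the 0 of Hk2 in single cell 11 was the only 0 among 99 values of the 9 enzymes. In unscaled TPM, single cell 5 held the lowest Aldoa, Tpi1, Gapdh, Pkm and Ldha of all single cells, and single cell 3 the highest Gapdh, Pgam1 and Ldha. The table's genes held 65.3% of the TPM total in single cell 5 and 90.6% in single cell 3. They held 65.0% in single cell 8, 65.1% in single cell 11 and 86.5% in single cell 2, so some of these ranks depend on the scaling.

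Of the 9 enzymes, 8 (all but Pfkl) spread less between single cells than the median gene of high expression, with Hk2 close to it. The SD of log2(TPM + 1) over the 11 single cells had a median of 0.849 over the 9 enzymes, from 0.518 for Tpi1 to 1.73 for Pfkl, compared with a median of 1.72 over 2175 genes at 100 TPM or more in both bulk RNA libraries. Hk2 had an SD of 1.67. Without single cells 6 and 9 the reference was 1.77, Tpi1 had 0.577, and Hk2 (1.84) and Pfkl (1.774) lay at or above it. Without single cells 1 to 4 the reference was 1.65, and Hk2 (1.91) was the enzyme that did not lie below it. In 10-cell pools the median SD was 0.341, compared with 0.382 (0.349 and 0.376 without pools 5 and 12), and 5 of the 9 enzymes lay below the median gene. In 100-cell pools the order was the other way, with 0.649 compared with 0.526. Those SDs span the 2 sets of 100-cell pools described below and include the gap between the sets. In bulk RNA the values were 0.011 and 0.029. Hk2 lies under 100 TPM in bulk RNA, and no comparison matched on level was made.

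In the input series most pairs were positive, but Hk2, Gapdh and Pfkl did not follow the rest in all inputs. The median r over 36 pairs was 0.431 in single cells, where it was 0.235 over pairs of the 2175 genes, and 0.428 without single cells 6 and 9. In 10-cell pools it was 0.617, compared with 0.065 over all pairs, and 0.519 without pools 5 and 12. Aldoa and Ldha were closest in single cells (r = 0.874), and Gpi1 and Pkm in 10-cell pools (r = 0.924). In single cells Hk2 was negative with Pgam1 (r = -0.500) and Gpi1 (-0.435), and Pfkl with Gpi1 (-0.206) and Gapdh (-0.151). In 10-cell pools Gapdh was negative with 6 of the other 8 enzymes, from -0.256 with Hk2 to -0.014 with Aldoa. Among 6863 genes with a mean of at least 10 TPM, Ldha (r = 0.932) followed the mean of the standardized enzymes, of which it is part, most closely over the 31 libraries, with Pkm (0.901) at rank 3 and Tpi1 (0.900) at rank 4. Of the genes outside the list, P4hb (0.928), Nudc (0.892), Impdh1 (0.860), Ezr (0.857) and Acsl5 (0.842) came nearest. The libraries share their inputs and library preparation.

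No enzyme of the list passed the test between single cells and 10-cell pools, where 2599 of 12325 genes (21.1%) did, 2593 of them lower in single cells. The difference in Pgam1 was -0.52 on the log2 scale with a standard error of 0.33 (limma adjusted p = 0.250), and over the 8 alternatives run it ranged from -0.70 without single cells 1 to 4 to -0.18 after rescaling to the genes of the table. The other 9 had limma adjusted p from 0.529 to 0.985. At an unadjusted p under 0.05 the count was also 0 of 10, where 4594 genes (37.3%) had one. The count after adjustment was 0 of 10 in each of these alternatives. Such a p does not show that levels were equal, since the standard errors reached 0.98 for Pfkl.

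In the lists around the pathway, all genes that passed were lower in single cells. Of 16 other glycolytic isoenzymes tested 2 passed (Pgk1 and Ldhb), of 16 TCA cycle genes 5, and of 13 genes of pyruvate dehydrogenase and its kinases 4. Hypoxia-induced genes gave 2 of 14, transport and gluconeogenesis 0 each, and 1 gene each passed among flux regulators (Tigar), transcription factors (Mlx), the pentose phosphate pathway (G6pdx) and the serine branch (Psph). Without single cells 1 to 4 the counts were 1 isoenzyme (Ldhb), 3 TCA cycle genes, 1 pyruvate dehydrogenase gene, 1 hypoxia-induced gene and 1 serine branch gene, and 0 in the other lists. Without the 4 libraries of nearly the same profile they were 2, 6, 4, 2 and 2, with 1 gene each of gluconeogenesis, flux regulators, transcription factors and the pentose phosphate pathway, where 3030 of 12264 genes (24.7%) passed. Pgk1 was 0 in single cells 1 to 4, and 101 to 675 TPM in the other 7, compared with 395 to 604 TPM in 10-cell pools. Its difference of -3.47 (limma adjusted p = 0.00366) became -0.35 (limma adjusted p = 0.483) without single cells 1 to 4. G6pdx, the entry enzyme of the pentose phosphate pathway, and Pdha1, a subunit of pyruvate dehydrogenase, are X-linked too and were listed at 0 in the same 4 cells. They moved from limma adjusted p of 0.00468 and 0.000936 to 0.471 and 0.108 without those cells, and X-linked Pdk3, a kinase of that complex, from 0.00105 to 0.0619. Idh3g, an X-linked subunit of the TCA cycle enzyme isocitrate dehydrogenase, was at 0 in the same 4 cells as well but still passed without them, with a difference of -4.06 (limma adjusted p = 0.000235) that became -2.19 (limma adjusted p = 0.0247). Without those cells 1676 of 12273 genes passed (13.7%). Epithelial markers moved in the same comparison, with 3 of 8 lower in single cells (Krt18 by -0.97, Epcam by -2.28 and Cldn7 by -1.35, limma adjusted p = 0.0254, 0.0261 and 0.0386) and 0 higher, and a median difference of -1.13, compared with -0.91 over all genes tested. The count was 1 without single cells 1 to 4 and 4 without the 4 libraries of nearly the same profile, and its part in the other differences was not tested.

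Compared with bulk RNA, 7 of the 10 enzymes were lower in 10-cell pools and 0 higher, where 9061 of 12325 genes (73.5%) passed and 60.2% were lower. In 100-cell pools 8 of the 10 were lower and 0 higher, where 8088 genes (65.6%) passed and 53.3% were lower. Most genes of the table thus passed in these fits, and the counts are not read as particular to the enzymes. The fit gave the 2 closely matching bulk libraries a weight of 31.5, compared with 1.497 for 10-cell and 1.704 for 100-cell pools. With equal weights 0 of the 10 passed in both comparisons, where 1445 of all genes passed for 10-cell pools and 421 for 100-cell pools. Leaving out either bulk library leaves a lone library in that group, and this is taken up at the end. Lysate of sorted cells and extracted RNA differ in more than cell number, and these differences cannot be told apart.

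In 10-cell pools Pfkl, Hk2 and Pkm differed most from bulk RNA among the 10. Pfkl was lower than bulk RNA by a log2 difference of -2.45 (SE 0.41, limma adjusted p = 2.6e-06), with 17.5 to 157 TPM and a median of 53.3 TPM, compared with 289 and 290 TPM in bulk RNA. Hk2 was lower by -1.88 (SE 0.23, limma adjusted p = 9.6e-09), with 1.32 to 9.79 TPM compared with 20.7 and 18.9 TPM. Pkm was lower by -1.63 (SE 0.33, limma adjusted p = 4.9e-05), with 434 to 2688 TPM. The ranges of these 3 genes in 10-cell pools lay below both bulk libraries. Without pools 5 and 12 the highest values were 119 TPM for Pfkl and 2252 TPM for Pkm, the median of Pfkl was 36.0 TPM, and the 7 lower enzymes all passed (counted with single cells 6 and 9 left out too), with 73.4% of 12264 genes called.

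Gpi1 (-0.92), Pgam1 (-0.54), Ldha (-0.38) and Tpi1 (-0.33) were lower in 10-cell pools by smaller log2 differences, with limma adjusted p of 0.000137, 0.000855, 0.00648 and 0.00535. Aldoa (0.005, limma adjusted p = 0.972) and Gapdh (0.10, limma adjusted p = 0.198) did not pass. Gapdh had 2571 to 3436 TPM in 10-cell pools and 2653 and 2693 TPM in bulk RNA, so its pools lay on both sides of the bulk libraries. The 10-cell pools of Ldha reached 3012 TPM and those of Tpi1 1321 TPM, and both ranges overlapped bulk RNA.

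The 100-cell pools split into 2 sets. Pfkl had 199, 193 and 171 TPM in pools 1 to 3 and 6.28, 9.09 and 11.4 TPM in pools 4 to 6. Pkm had 2832, 2714 and 2636 TPM in pools 1 to 3 and 156, 211 and 177 TPM in pools 4 to 6. For both genes the lower set lay below every value of the 10-cell pools, while all 6 pools carry the same labels.

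Pgam1 had 232, 216 and 206 TPM in pools 1 to 3 and 82.3, 112 and 113 TPM in pools 4 to 6. Ldha and Aldoa showed the same order, with 2447 to 2590 TPM beside 882 to 1364 TPM for Ldha and 2289 to 2368 TPM beside 842 to 1199 TPM for Aldoa. Gapdh did not, with 2323 to 2416 TPM beside 2111 to 2527 TPM, and Pgk1 had 560 to 576 TPM beside 389 to 445 TPM. Slc16a3, the lactate exporter, had 83.2 to 98.9 TPM beside 0.976 to 1.78 TPM. This split was seen in the values and not in the labels, so no test was made of it.

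**Figure D4:**
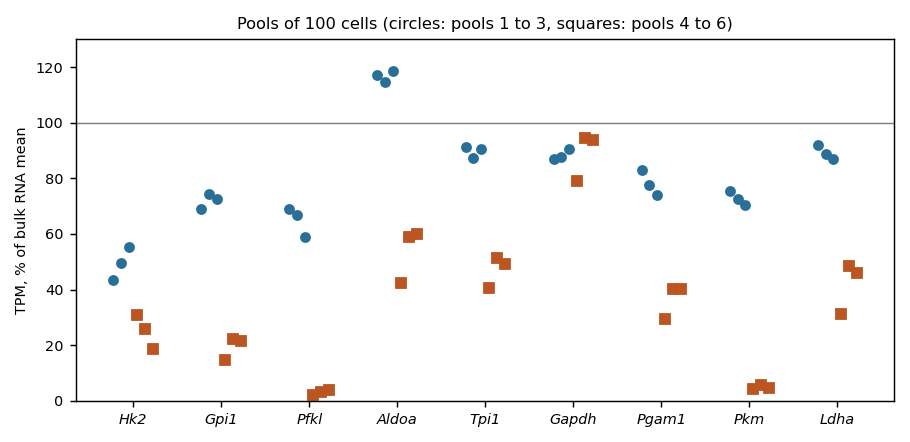
TPM of 9 enzymes in each 100-cell pool as a percentage of the bulk RNA mean (vertical axis), pools 1 to 3 as circles and pools 4 to 6 as squares. Gapdh overlaps between the sets, while Pfkl and Pkm sit near the foot of the axis in pools 4 to 6, at no more than 11.4 and 211 TPM.

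The main transcript of Gapdh (1420 bases) is the shortest of the 10 and that of Hk2 (5513 bases) the longest, with 2432 bases for Pkm and 3730 for Pfkl. The mean of pools 4 to 6 was 101% of that of pools 1 to 3 for Gapdh and 50.6% for Hk2. It was 6.66% for Pkm, 4.76% for Pfkl and 52.4% for Tpi1 (1607 bases). Over the 2175 genes at 100 TPM or more in bulk RNA, the median log2 difference from bulk RNA was -0.04, -0.05 and -0.09 in pools 1, 2 and 3, and -1.07, -0.84 and -0.74 in pools 4, 5 and 6. These medians cover genes chosen for their level in bulk RNA, and the table's genes together held 99.72% to 99.9% of the fixed TPM total in all 6 pools. Across the 2114 of these genes with a main transcript, the difference from bulk RNA fell with transcript length in all 6 pools (rho from -0.777 to -0.646). With GC content rho was 0.062, 0.073 and 0.149 in pools 1 to 3 and -0.293, -0.259 and -0.240 in pools 4 to 6. The 8 epithelial markers summed to 30416, 30247 and 31974 TPM in pools 1 to 3 and to 7770, 10579 and 11503 TPM in pools 4 to 6. These are descriptions across genes, which are not independent, and the part of GC content, length or cell makeup in the enzymes' values was not tested.

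Without pools 4 to 6, all 10 enzymes passed against bulk RNA, 8 of them lower, where 8447 of 12236 genes (69%) passed and 50.4% were lower, and the differences were -0.95 for Hk2, -0.62 for Pfkl, -0.47 for Gpi1, -0.46 for Pkm and -0.36 for Pgam1, compared with -1.39, -2.76, -1.42, -2.41 and -0.90 with all 6 pools. Gapdh (-0.18), Ldha (-0.16) and Tpi1 (-0.15) were the other lower enzymes. Aldoa turned from -0.34 (limma adjusted p = 0.0379) to 0.23 (limma adjusted p = 1.0e-04). Pools 1 to 3 held 2289 to 2368 TPM of Aldoa, above both bulk RNA values of 1984 and 2004 TPM.

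Markers of other cell types moved in the same comparisons. Alas2 was higher than bulk RNA by 2.53 in 10-cell pools and by 1.98 in 100-cell pools (limma adjusted p = 0.000105 and 0.0120), S100a8 was lower by a log2 difference of -3.50 in 10-cell pools (limma adjusted p = 1.1e-07), and epithelial markers were lower in 4 of 8 with 1 higher in 10-cell pools and lower in 5 of 8 in 100-cell pools. Summed over the 8 epithelial markers, bulk RNA held 28319 and 28852 TPM. The 100-cell pools 1, 2 and 3 lay above both bulk libraries, at 30416, 30247 and 31974 TPM. Pools 4, 5 and 6 lay below both, at 7770, 10579 and 11503 TPM. The count of 5 lower markers is not given without pools 4 to 6. The part of all these markers in the other differences was not tested.

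In the wider lists, counts stand beside the same backgrounds of 73.5% and 65.6%. Of 16 other glycolytic isoenzymes tested, 8 were lower and 2 higher in 10-cell pools. Hk1, the ubiquitous hexokinase, differed by -4.09 and Pgam2, the muscle-type mutase, by -2.54, with limma adjusted p of 4.2e-12 and 4.8e-14. Of 7 transcription factors 6 were lower, among them Hif1a (-1.81) and its partner Arnt (-2.66), with limma adjusted p of 9.0e-11 and 1.9e-10.

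Of 16 TCA cycle genes 7 were higher and 5 lower in 10-cell pools. Mdh2, malate dehydrogenase, was higher by 0.76 and the succinate dehydrogenase subunit Sdhc by 1.02, with limma adjusted p of 9.4e-13 and 2.9e-09. Of 13 genes of pyruvate dehydrogenase, its kinases and the pyruvate carriers 3 were higher and 7 lower. The higher genes were Pdhb (0.51, limma adjusted p = 0.0186), a subunit of the complex, and the carriers Mpc1 (1.30) and Mpc2 (0.95), which bring pyruvate into mitochondria, with limma adjusted p of 2.5e-08 and 1.8e-08, while the kinase Pdk1 was lower by -1.99 (limma adjusted p = 5.2e-08). In 10-cell pools 6 transport genes were lower and 1 higher of 8, and 5 flux regulators were lower and 1 higher of 7. Hypoxia-induced genes were lower in 10 and higher in 2 of 14, pentose phosphate genes lower in 4 and higher in 3 of 7, gluconeogenesis genes lower in 3 of 4, and the serine branch gave 1 each way of 5. In 100-cell pools 8 isoenzymes were lower and 0 higher, and the TCA cycle gave 6 each way. These calls come from the same weighted fit as those of the enzymes.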

How the data were processed

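Per the labels and the study's methods, the authors sequenced SMART-Seq v4 libraries, aligned reads to mm10 with ERCC92 sequences (STAR), counted them per gene (featureCounts), applied upper-quartile normalization (EDASeq) and deposited TPM. The gene annotation and the rule for choosing genes are not given in the sources used here. Values were taken as log2(TPM + 1), and genes at 1 TPM or more in at least 3 libraries were kept. limma (3.58.1, R 4.3.3, with a trend) was fitted to the 12 libraries of the processing experiment and, with a variance weight per input, to the 31 of the input series. The tables were normalized separately and tested apart. The p-values measure the spread between samples, which may be technical. On simulated data with added changes the processing fit recovered nearly all of them and the weighted fit fewer. Few were recovered between single cells and 10-cell pools, so genes that missed the threshold there are not shown to be equal. The added changes were larger than any difference of the 10 enzymes between processing conditions. Recovery of changes as small as those of the enzymes was not tested. All 10 enzymes are named; from other lists, up to 4 of lowest adjusted p or the 2 of highest mean TPM. Only some of these are printed, and Slc16a3 in the split pools and the X-linked genes were chosen after their values were seen. A further allele of the mice is not reported here. The enzymes and lists were chosen with earlier results of these data known. Alternatives were another pseudocount, no filter, quantile normalization, no trend, the replicate number as a block, rescaling to the genes of the table, no weights and leaving out libraries. Gene coordinates, transcript lengths and transcript words come from GENCODE M21 and promoters from RefSeq (GRCm38.p6).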

Additional observations from a re-analysis of the deposited data

How the results depend on the processing

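Among the 4 conditions the count of listed enzymes past the threshold went from 1 to 0 in limma without a trend and ranged from 0 to 1 when each library was left out. The count for Pre-enriched against Pre-FACS did the same (0 without a trend, 0 to 1 on leaving out a library). The labels tie the replicate numbers to no shared batch, and not every same-numbered pair correlated above 0.1 (-0.042 to 0.229, median 0.069), so the numbers were not taken as pairs. Different-numbered pairs correlated at -0.160 to 0.084 (median -0.030), and 11 of 12 libraries were nearest on average to their own number. The study's text describes FACS-only as the same sample as Pre-enriched, Pre-FACS as a banked aliquot and Mock as an identical sample. It does not tie replicate numbers to each other. A shared origin by number is thus possible, and the main fit leaves it out. With the replicate number as a block the count for FACS-only against Pre-FACS was 1. Against bulk RNA the counts of 7 (10-cell pools) and 8 (100-cell pools) went to 0 without weights and to 0 without either bulk RNA library, where the lone bulk library is assumed to vary like the other groups. Against bulk RNA in 10-cell pools, leaving out a bulk RNA library moved Aldoa to -0.0022 to 0.012 and Eno1 to -0.31 to 0.64, and leaving out the 4 libraries of nearly the same profile moved Aldoa to -0.050. In 100-cell pools leaving out a bulk RNA library moved Eno1 to -0.50 to 0.45, and without pools 4 to 6 Aldoa was 0.23 and Eno1 0.44. Between single cells and 10-cell pools, Hk2 was -0.068 at a pseudocount of 0.1, Aldoa -0.057 without single cells 1 to 4, and Gapdh 0.20, Pkm 0.077 and Ldha 0.26 after rescaling to the genes of the table. After quantile normalization the differences of Pre-enriched from Pre-FACS were -0.095 for Aldoa, -0.12 for Pkm and -0.15 for Ldha, and those from FACS-only were 0.053 for Gapdh, -0.079 for Pkm and 0.0031 for Ldha. The causes of these changes were not tested. Over all genes, the 13 calls among the 4 conditions ranged from 1 to 17 on leaving out a library and were 61 with the block. The 6 of Pre-enriched against Pre-FACS ranged from 1 to 7 on leaving out a library and were 37 with the block. The 15 of FACS-only against Pre-FACS ranged from 5 to 24 and were 77 with the block. Against bulk RNA, 9061 calls in 10-cell pools became 1445 without weights, and 8088 in 100-cell pools became 421. Both fell further without either bulk RNA library, where a lone bulk library remains and no count is read. Settings that leave out the 4 similar libraries, pools 4 to 6 or single cells 1 to 4 were chosen after seeing the data. TPM keeps no depth, so low values such as those of Eno1 and Hk2 have no counting error.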
